A study of Arabidopsis thaliana with 8 samples.

Results

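GAT1_2.1, AT2G28200, AT4G28240, AT1G13000 and AT5G57760 are 5 Arabidopsis thaliana genes that were picked because their transcripts stood much lower in shoots after heat. Each is read by 1 chosen probe set of an ATH1 array, out of 22746 probe sets without controls and 15919 bright enough to be tested. The heat contrasts themselves served to pick the genes, so their heat values are given here as a description without a test, and tests are kept for the comparisons of the genotypes, which share the same arrays. The arrays came from shoots of 15-day-old seedlings of the ecotype Col-0, held for 2 h either at 37 °C (heat) or at 22 °C (control). One genotype was a knockout by T-DNA insertion in HSA32 (AT4G21320; labelled GABI-268A08, a single insertion line) and the other was the wild type without it. The 4 groups were heated knockout, control knockout, heated wild type and control wild type, with 2 arrays each, and each array read a pool of about 100 plants. Wild-type control replicate 1 was grouped by its title, since its source text names heat and does not name a control.

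Plant cells that meet heat shift transcription towards chaperones under the control of heat shock factors, while many transcripts of growth and metabolism decline through lower synthesis, faster decay or both. An array of whole shoots cannot tell fewer cells of a type from less RNA per cell. GAT1_2.1 (AT1G15040) encodes a glutamine amidotransferase, an enzyme class that takes the amide nitrogen of glutamine, and it is known for its regulation by nitrogen and for repressing shoot branching. The other 4 genes carry only a locus number in the annotation used here. General Arabidopsis annotation describes AT2G28200 as a C2H2-type zinc finger protein, a class of DNA-binding regulators, AT4G28240 as a member of a wound-responsive protein family and AT1G13000 as a protein with the domain of unknown function DUF707. AT5G57760 has no described function.

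HSA32, the disrupted gene, read 378 and 589 in heated knockout shoots and 1125 and 1247 in control knockout shoots, against 23175 and 9240 in heated and 657 and 230.0 in control wild-type shoots. The labels do not place this probe set before or after the insertion, so what the knockout still read is no check of its genotype. Of the fixed tissue marker lists only 4 genes could be read by name. RCA, which encodes the activase of the photosynthetic enzyme Rubisco and marks green tissue, read between 16090 and 36539 on the 8 arrays. The root gene EXPA18 read between 23.3 and 144.5, the root gene EXPA7 between 11.3 and 96.8 and the seed gene PAP85 between 56.6 and 147.9. The 2 heated wild-type arrays differed from each other more than any other pair of replicates, with a median difference of 0.59 on the log2 scale over all tested probe sets, against 0.38 to 0.40 in the other 3 groups.

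GAT1_2.1 fitted lowest of the 5 genes after heat in both genotypes, an order that holds for the offset used here and not for every setting. Its signal was 17.9 and 19.8 in heated knockout shoots, against 1043 and 673 in control knockout shoots. In wild type it was 11.8 and 150.2 after heat, against 896 and 1245 in the controls. Each heated array lay below each control array of its genotype, and wild-type heat replicate 2 stood clearly above the other 3 heated arrays. The mean signal left after heat was 2.20% of the control mean in the knockout and 7.57% in wild type. On the scale log2(signal + 29.1), on which all fitted values here are given, the heat difference was -4.18 ± 0.61 in the knockout and -3.66 ± 0.61 in wild type (± SE, n = 2 arrays a group). Of its 4 heated readings 3 lay under the offset of 29.1 that was added to every signal. The fitted value therefore depends on that offset, and it ran from -5.02 to -2.82 in the knockout with 0.25 times and with 4 times the offset. With 4 times the offset AT4G28240 was the lower gene, at -3.30 in the knockout and -3.09 in wild type, against -2.82 and -2.67 for GAT1_2.1. In wild type GAT1_2.1 was at -2.60 without heat replicate 1, where AT4G28240 was at -4.40, and at -4.73 without heat replicate 2. Under quantile normalization the wild-type values were -3.45 for GAT1_2.1 and -3.47 for AT4G28240.

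The annotation pairs GAT1_2.1 with another probe set, 260743_at, which was not among the chosen ones and was too dim to be tested. It read 10.8 and 38.4 in heated knockout shoots, against 100.3 and 38.7 in control knockout shoots. In wild type it read 49.1 and 57.0 after heat, against 74.6 and 36.1 in the controls. The wild-type groups overlapped, and in the knockout the gap between the groups was 0.3 signal units. The low level of GAT1_2.1 after heat therefore rests on 1 of its 2 probe sets.

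AT2G28200, the zinc finger gene, had replicates close together in all 4 groups. It read 127 and 111 in heated knockout shoots, against 1181 and 1090.5 in control knockout shoots, and 155 and 134 in heated wild type, against 933 and 1008 in control wild type. All 4 heated arrays lay below all 4 control arrays, with the lowest control 8.60-fold above the highest heated array in the knockout and 6.01-fold in wild type. The heat difference was -2.98 ± 0.30 in the knockout and -2.53 ± 0.30 in wild type (± SE, n = 2), and the heated means were 10.5% and 14.9% of the control means. Replicates differed by 0.11 to 0.18 on the log2 scale in the 4 groups, and in each group at most 21.1% of all tested probe sets had a smaller gap.

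AT4G28240, the gene of the wound-responsive family, was bright in control shoots. Its signal was 548 and 727 in heated knockout shoots, against 10263 and 5135 in control knockout shoots. In wild type it was 1395 and 275 after heat, against 5034 and 8154 in the controls. No heated array reached a control array, yet the 2 heated wild-type arrays were 2.23 apart on the log2 scale, a larger gap than that of 97.2% of tested probe sets. The heat difference was -3.46 ± 0.68 in the knockout and -3.29 ± 0.68 in wild type (± SE, n = 2). Without wild-type heat replicate 2 the wild-type value was -2.18, and without replicate 1 it was -4.40.

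AT5G57760, the gene of undescribed function, read 83.8 and 95.8 in heated knockout shoots, against 1171 and 1664 in control knockout shoots. In wild type it read 115 and 70.1 after heat, against 357.5 and 1318 in the controls. The heated arrays of both genotypes lay within 70.1 to 115, and the spread was in the wild-type controls, where replicate 1 was the lower. That gap of 1.80 on the log2 scale was larger than that of 98.3% of tested probe sets. The heat difference was -3.59 ± 0.55 in the knockout and -2.59 ± 0.55 in wild type (± SE, n = 2), and the wild-type value was -1.69 without control replicate 2 and -3.49 without control replicate 1.

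AT1G13000, the DUF707 gene, differed from the other 4 as fitted in that its heat value was smaller in size in the knockout than in wild type. Single arrays could give other genes that order. Without wild-type heat replicate 1 AT4G28240 had -4.40 in wild type, against -3.46 in the knockout. Without wild-type heat replicate 2 GAT1_2.1 had -4.73, against -4.18. AT2G28200 and AT5G57760 did not take that order with any single array left out. It read 113 and 55.7 in heated knockout shoots, against 258 and 348 in control knockout shoots, and 27.6 and 17.1 in heated wild type, against 307 and 310.3 in control wild type. Heated and control arrays did not overlap in either genotype, and both heated knockout arrays lay above both heated wild-type arrays. The mean left after heat was 27.9% of the control mean in the knockout and 7.24% in wild type. The heat difference was -1.58 ± 0.36 in the knockout and -2.72 ± 0.36 in wild type (± SE, n = 2). Both heated wild-type readings lay under the offset of 29.1, and the wild-type value ran from -3.44 with 0.25 times it to -1.62 with 4 times it.

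**Figure D1:**
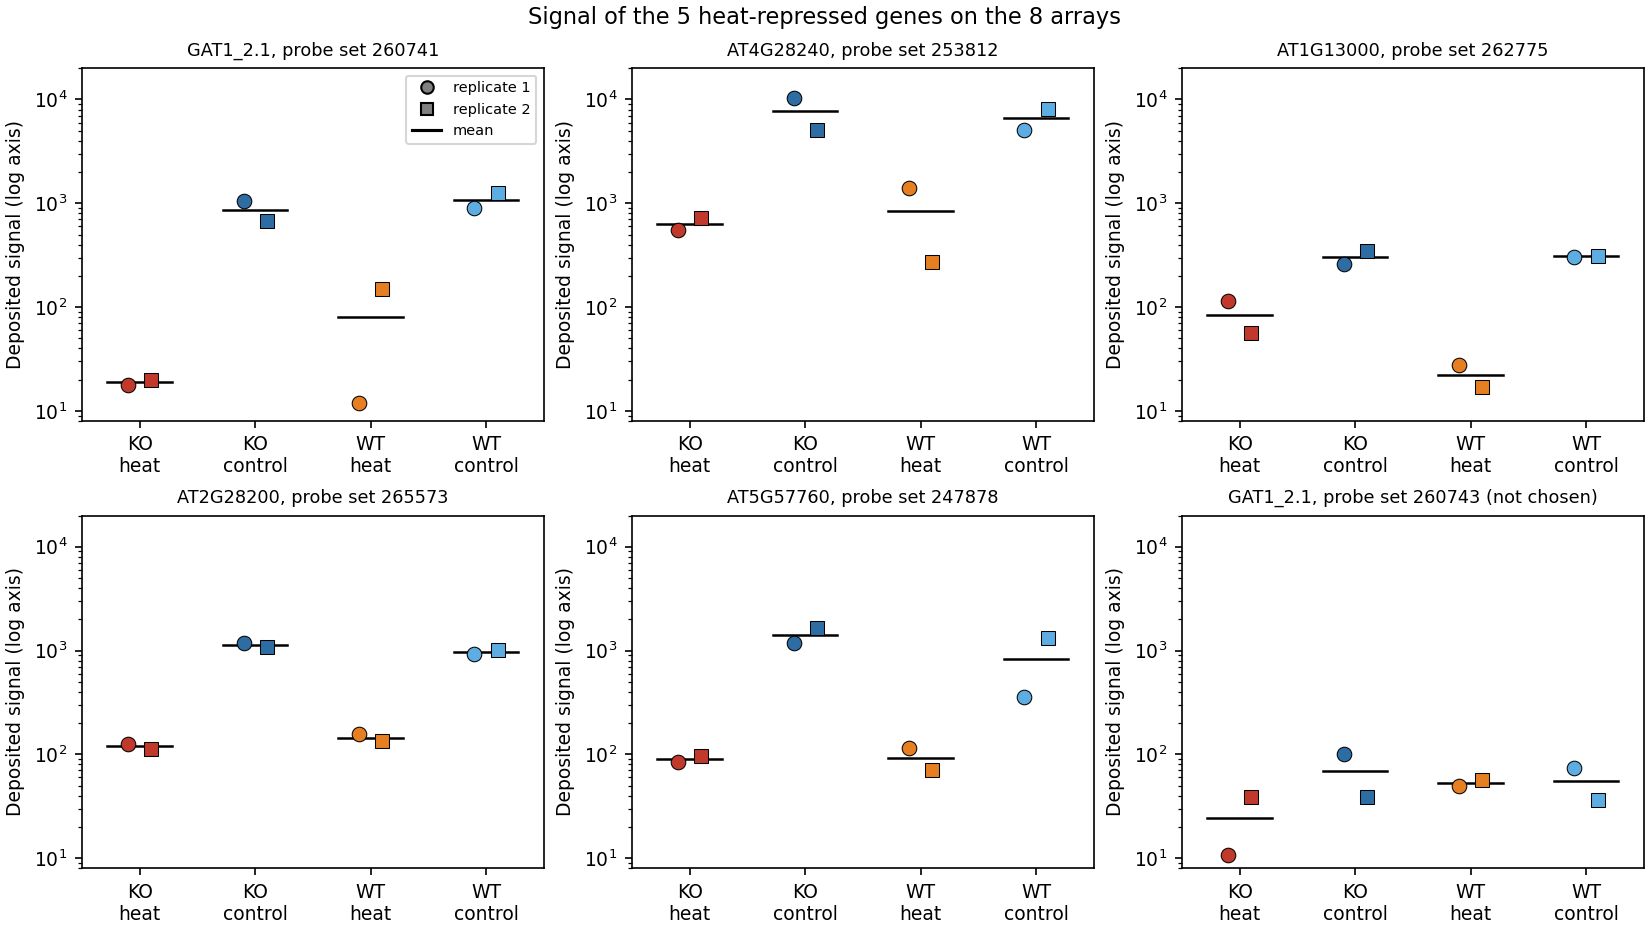
Deposited signal (log axis) of the 5 chosen probe sets and of the other probe set of GAT1_2.1 on each array, by group (KO, HSA32 knockout; WT, wild type); circles are replicate 1, squares replicate 2 and bars the mean of 2. Every heated array of the 5 chosen probe sets lies below the control arrays of its genotype, whereas probe set 260743 of GAT1_2.1 stays between 10.8 and 100.3 throughout.

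All 5 genes were lower without overlap in both genotypes, which was the pattern they were chosen for. Over all tested probe sets 23.7% were lower without overlap in both genotypes, 40.9% in the knockout and 30.5% in wild type. The calls of limma at an adjusted p under 0.05 were much rarer, with 3.66% of tested probe sets lower in the knockout and 0.71% lower in wild type. The median heat difference of the 5 genes was -3.46 in the knockout and -2.72 in wild type, beside -0.26 and -0.22 over all tested probe sets. Among the 8747 tested probe sets paired with 1 gene, GAT1_2.1 had the second lowest heat value in the knockout and the lowest in wild type at the offset of 29.1, and neither rank is firm, since with 4 times the offset AT4G28240 lay lower in both genotypes and AT5G57760 (-2.88) in the knockout. AT1G13000 ranked 406 in the knockout and 4 in wild type, so it was among the lowest in wild type alone. Over all 15919 tested probe sets GAT1_2.1 ranked 8 in the knockout and 5 in wild type. AT1G13000 ranked 784 and 14 there, so probe sets not paired with 1 gene also held lower values.

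In the knockout the lowest value of a named gene was that of ATL8, a RING-finger gene that is not among the 5, at -4.55. Other genes lay beside the chosen ones in wild type. ATL8 had -3.49 there, between GAT1_2.1 at -3.66 and AT4G28240 at -3.29. AT1G25400 had -2.56, between AT5G57760 at -2.59 and AT2G28200 at -2.53, and AT2G19660 had -2.50. These neighbours show that no gap in the values parts the 5 genes from those ranked next to them.

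**Figure D2:**
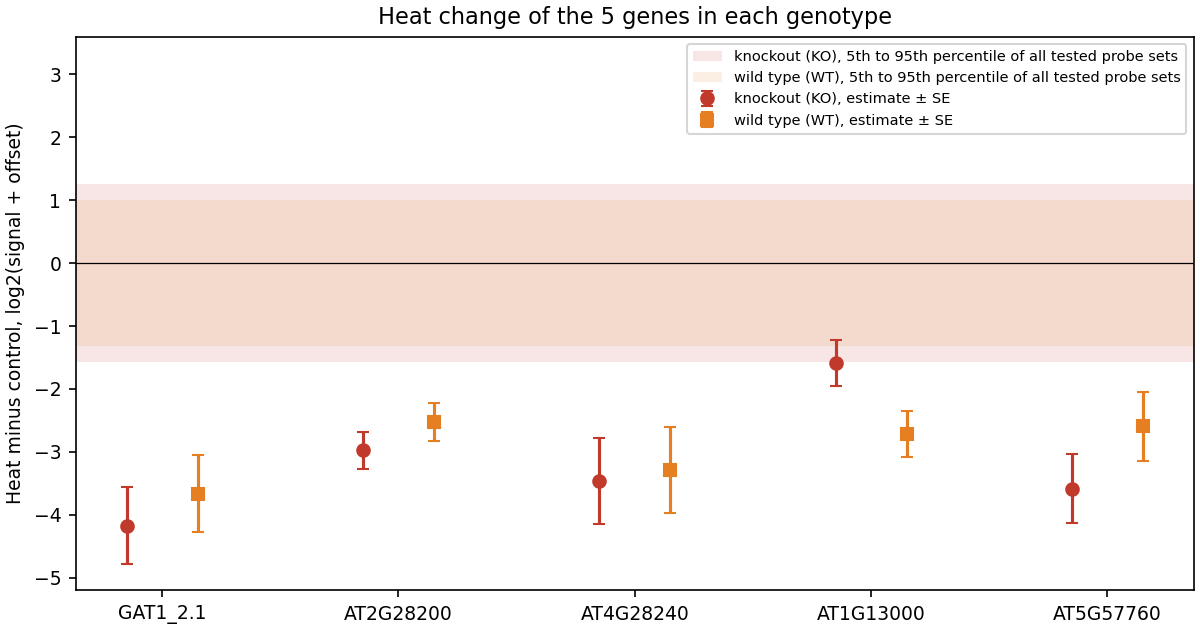
Heat minus control on the scale log2(signal + 29.1) for the 5 genes in the knockout (circles) and in wild type (squares), with standard errors; the shaded bands hold the 5th to 95th percentile of all tested probe sets in each genotype. All 10 values lie below zero, and AT1G13000 in the knockout, at -1.58, is the value nearest to the bands.

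Whether loss of HSA32 altered the level of these transcripts was then compared at each temperature. These contrasts were not the ones that served to choose the genes, but they are made from the same arrays, so they are not independent of the choice. This bears most on AT1G13000 after heat, since its low readings in heated wild type gave it its rank there and also enter the difference. After heat, AT1G13000 was higher in the knockout, at 84.6 ± 40.8, against 22.4 ± 7.42 in wild type (SD, n = 2), a difference of 1.10 ± 0.36 on the log2 scale (95% interval 0.28 to 1.93). The size depended on the offset, being 1.58 with 0.25 times it and 0.52 with 4 times it. The interval is not adjusted for the number of probe sets, and the gene did not pass over all of them (limma, adjusted p = 1). AT2G28200 did not overlap either, with 119 ± 10.9 in the heated knockout and 145 ± 15.1 in heated wild type (SD, n = 2), a difference of -0.23 ± 0.30. Non-overlap by itself was common, since 21.4% of tested probe sets had it after heat. GAT1_2.1 differed by -0.84 ± 0.61 (95% interval -2.23 to 0.55), AT4G28240 by 0.01 ± 0.68 (-1.53 to 1.55) and AT5G57760 by -0.01 ± 0.55 (-1.25 to 1.23). The GAT1_2.1 value turned to 0.23 without wild-type heat replicate 2, and that of AT4G28240 was -1.11 without the same array and 1.12 without heat replicate 1.

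At 22 °C the differences of the 5 genes ran from -0.32 to 0.98, beside -0.84 to 1.10 after heat. AT5G57760 had the largest difference, with 1418 ± 348 in knockout controls and 838 ± 679 in wild-type controls (SD, n = 2), which is 0.98 ± 0.55 (95% interval -0.26 to 2.22). Without wild-type control replicate 1 this was 0.08, and without replicate 2 it was 1.88. AT2G28200 was at 1136 ± 64.0 in knockout controls, against 971 ± 53.1 in wild-type controls (SD, n = 2), without overlap, which 21.2% of tested probe sets showed at this temperature. Its difference was 0.22 ± 0.30 (-0.46 to 0.90). GAT1_2.1 differed by -0.32 ± 0.61, AT4G28240 by 0.18 ± 0.68 and AT1G13000 by -0.04 ± 0.36, with overlapping arrays in each case. Limma passed none of the 5 genes at either temperature (adjusted p = 1 for each).

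Over all 15919 probe sets limma called 0 between the genotypes after heat and 0 at 22 °C (percent called 0 in each), with 280 and 82 at an unadjusted p under 0.05. The intervals of GAT1_2.1, AT4G28240 and AT5G57760, and that of AT1G13000 after heat, include differences of more than 1 on the log2 scale. Those of AT2G28200 reach -0.90 after heat and 0.90 at 22 °C. With 2 arrays a group these data therefore do not show that the levels of any of the 5 genes were alike. The order of the group means was control above heat in both genotypes for every one of the 5 genes. Among neighbours in that order, the 2 control groups overlapped for all but AT2G28200, and the 2 heated groups overlapped for GAT1_2.1, AT4G28240 and AT5G57760.

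The difference between the heat responses, knockout minus wild type, was 1.14 ± 0.51 for AT1G13000 (95% interval -0.03 to 2.31) and, as fitted, below zero for the other 4. The value of AT1G13000 was 1.62 with 0.25 times the offset and 0.55 with 4 times it. The difference was -0.99 ± 0.77 for AT5G57760, -0.51 ± 0.86 for GAT1_2.1, -0.45 ± 0.42 for AT2G28200 and -0.17 ± 0.96 for AT4G28240. For AT5G57760 it was -0.09 without wild-type control replicate 1 and -1.89 without control replicate 2. None passed in limma (adjusted p = 1 for each), 0 of all probe sets were called and 88 had an unadjusted p under 0.05. This term is built from the heat contrasts that served to choose the genes, so it is not independent of the choice, least of all for AT1G13000, whose rank was high in wild type alone.

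**Figure D3:**
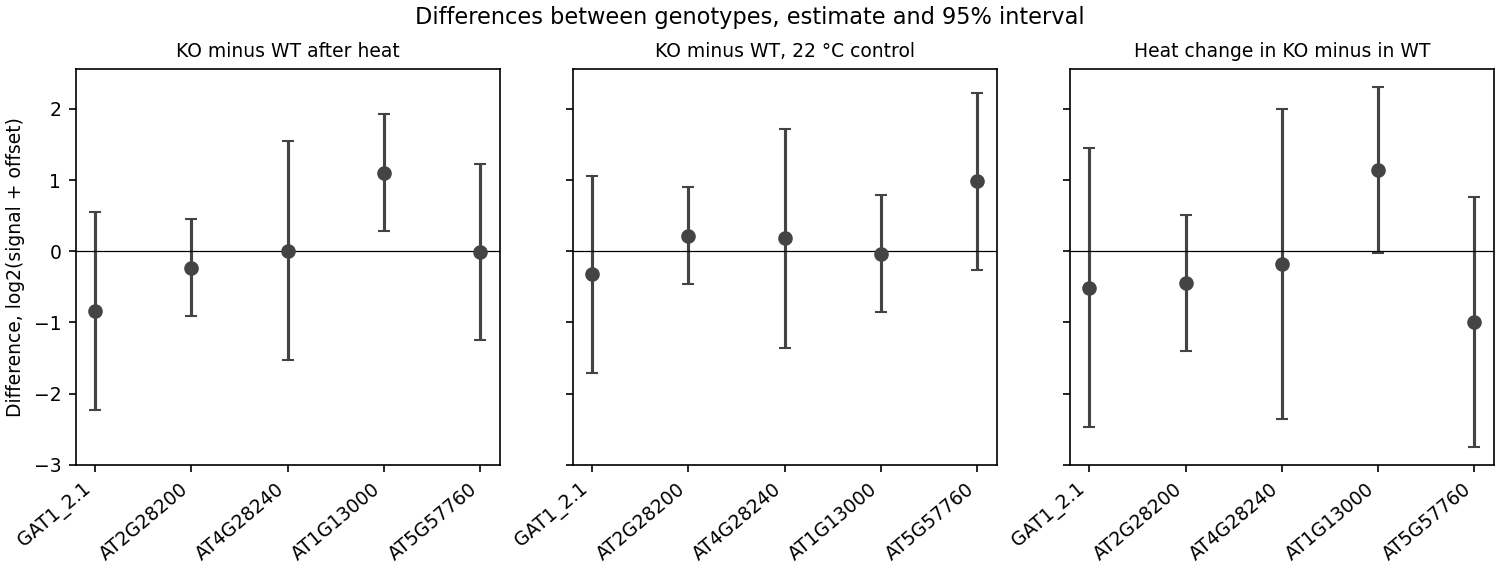
Estimates with 95% intervals on the scale log2(signal + 29.1) for knockout (KO) minus wild type (WT) after heat, for the same difference in 22 °C controls, and for the heat change in the knockout minus that in wild type. Of the 15 intervals only that of AT1G13000 after heat, 0.28 to 1.93 before adjustment, leaves out zero, and the low heated wild-type readings behind it also took part in the choice of that gene.

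The 5 profiles were not copies of each other. Likeness was measured as the root mean square difference over the 8 arrays between log2 profiles that were each centred on their own mean, so that 0 means the same shape and size. AT2G28200 and AT5G57760 were the most alike pair at 0.57, followed by AT2G28200 and AT1G13000 at 0.60. GAT1_2.1 and AT1G13000 were the least alike at 1.32. The 3 named genes nearest to each member were then taken from 8742 candidates, as a description, since likeness to a heat-chosen profile fixes a low heat value.

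Around AT2G28200 lay AT1G66890 (0.30), AT1G75990 (0.33) and AT1G25400 (0.37), with heat differences of -2.63, -2.20 and -2.83 in the knockout and -2.11, -2.24 and -2.56 in wild type. AT5G57760 had COB nearest (0.38), the gene of an anchored cell surface protein of oriented cell expansion, then AT4G39840 (0.41) and AT2G44730 (0.43). COB averaged 493 in heated and 4048 in control knockout shoots, and 416 in heated and 2772 in control wild-type shoots. Like AT5G57760, these 3 genes had their lower control value in wild-type replicate 1, a likeness that their choice by its profile favours.

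AT4G28240 had the RING-finger genes ATL8 (0.53) and BRH1 (0.57) next to it, of which the transcript of BRH1 is known to respond to brassinosteroids, followed by AT3G15630 (0.60). ATL8 averaged 127 in heated and 3740 in control knockout shoots, and 394 in heated and 3337 in control wild-type shoots. GAT1_2.1 had no close partner among these candidates, with AT1G25400 at 0.88, AT1G71970 at 0.94 and BRH1 at 0.98, beside a median of 1.99 over all of them. Probe sets not paired with 1 gene were not compared. The measure also grows with the size of a fall and with the gap between replicates, so the distance is not one of shape alone.

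AT1G13000 had AT4G23840 (0.31), AT2G19660 (0.38) and AT5G43310 (0.38) nearest. These 3 shared its smaller size of heat difference in the knockout, with -1.39, -2.08 and -1.17 there, against -2.21, -2.50 and -2.11 in wild type. Their heated means were 87.2, 41.9 and 73.7 in the knockout and 39.1, 8.20 and 20.1 in wild type. Since the profile of AT1G13000 selected them, they are no separate support for a difference between the genotypes.

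**Figure D4:**
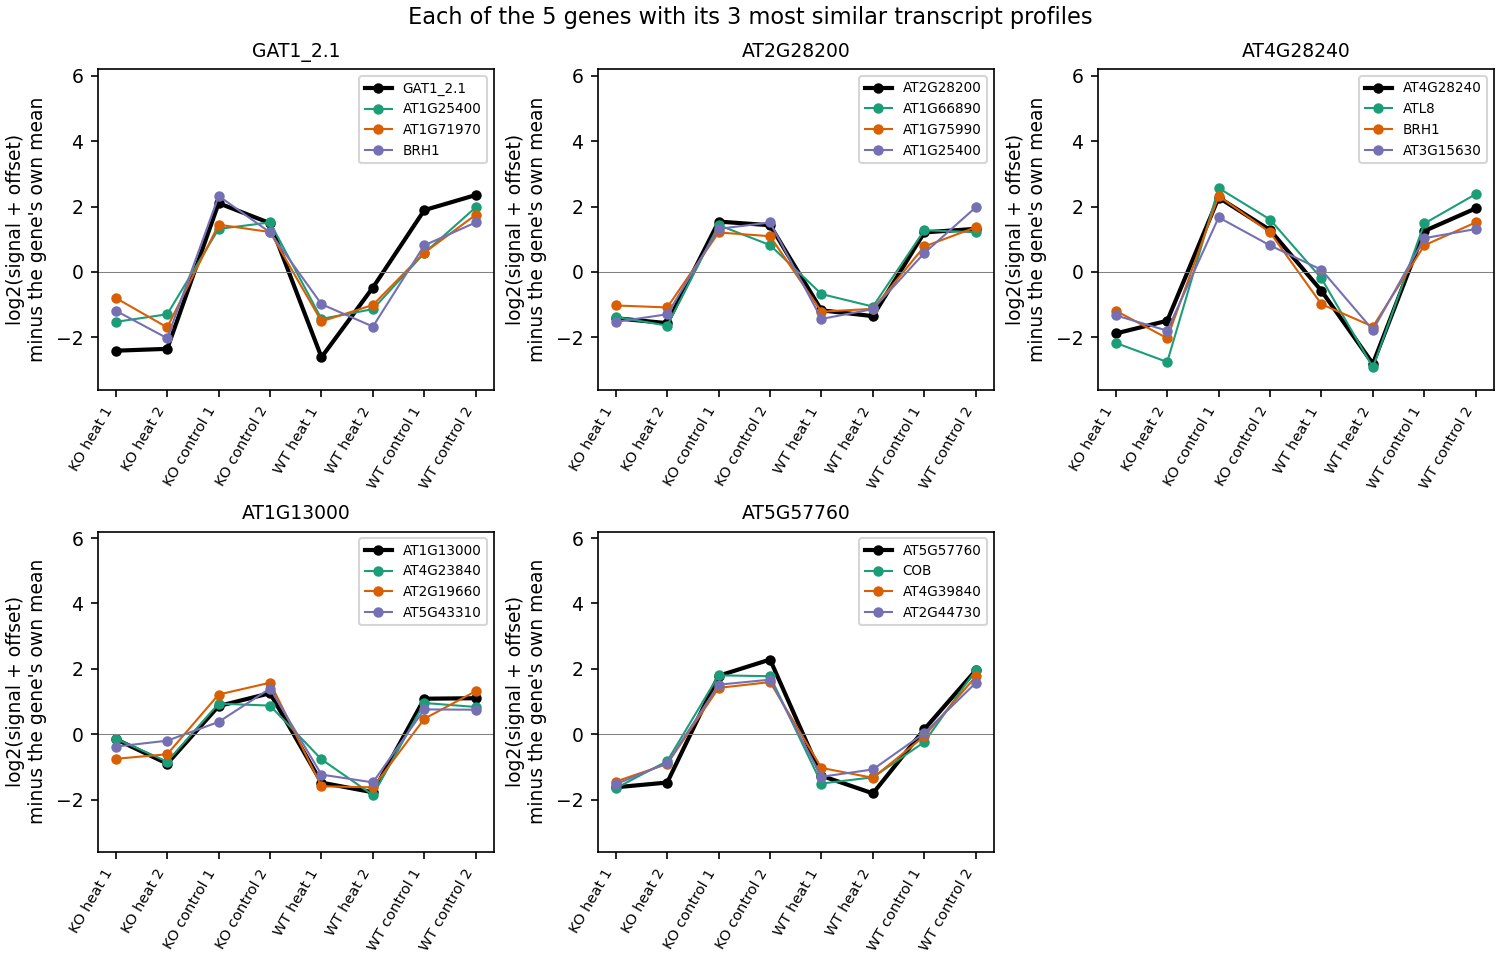
log2(signal + 29.1) minus each gene's own mean over the 8 arrays, for each of the 5 genes (thick black line) and its 3 nearest named genes (thin lines); lines join arrays only to guide the eye, and the numbers after the groups are replicates. The nearest genes follow AT2G28200 within a root mean square of 0.37 and AT1G13000 within 0.38, whereas those of GAT1_2.1 lie 0.88 to 0.98 away.

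Genes related to the 5 by family were read from fixed lists by family. The lists were drawn up with earlier results of these data known, so they are not a blind comparison. The DUF707 list was the one with good coverage, with 7 of 8 genes tested beside AT1G13000. None of the 7 passed in limma after heat, where 6.78% of all tested probe sets were called in the knockout and 2.55% in wild type. Their median heat difference was -0.08 in the knockout and -0.29 in wild type, beside -0.26 and -0.22 over all probe sets. AT2G28310 came closest, at -1.04 ± 0.42 in the knockout (adjusted p = 0.18, the 1 gene of the list with an unadjusted p under 0.05) and -0.84 ± 0.42 in wild type (adjusted p = 0.35, with 0 genes of the list under 0.05 unadjusted). The others had values from -0.76 to 0.30 in the knockout and from -0.49 to 0.34 in wild type.

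**Figure D5:**
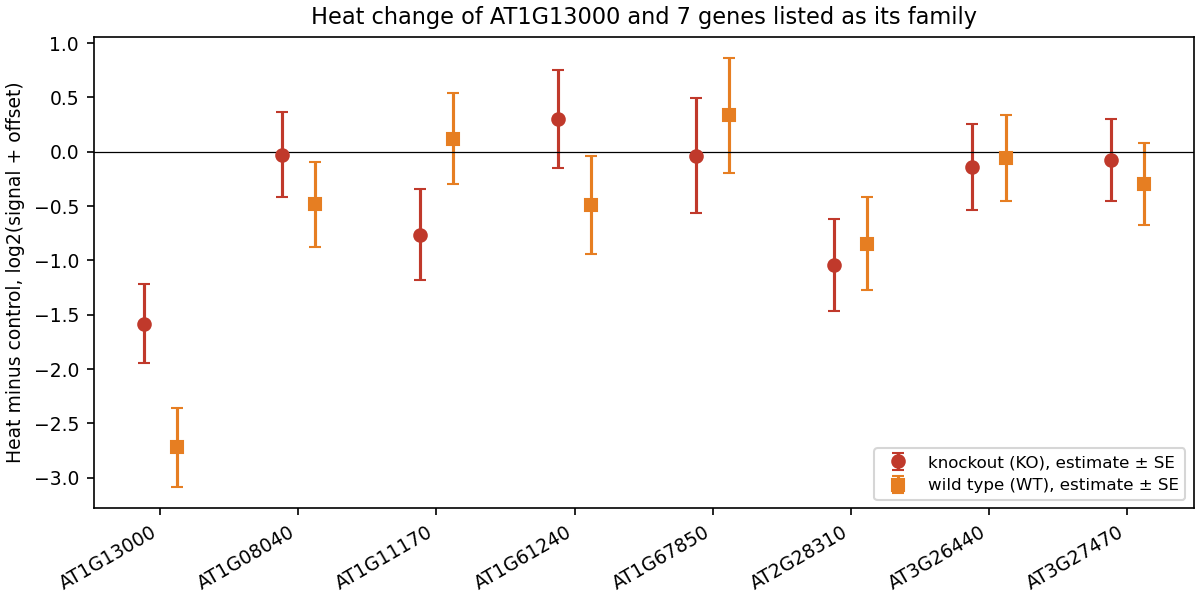
Heat minus control on the scale log2(signal + 29.1) for AT1G13000 and the 7 tested genes of the DUF707 list in the knockout (circles) and wild type (squares), with standard errors. AT1G13000 lies at -1.58 and -2.72, and the 7 listed relatives lie between -1.04 and 0.34.

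The other lists held few named genes. For the ZAT and AZF group of C2H2 zinc fingers 2 of 14 were tested and 0 passed in limma in either genotype, with 0 at an unadjusted p under 0.05. STZ, a zinc finger repressor of stress responses, had 1.28 ± 1.04 in the knockout (adjusted p = 0.50) and 1.82 ± 1.04 in wild type (adjusted p = 0.42), and AT5G03510 had -0.61 and 0.45. The control readings of STZ spread widely, at 1383 and 405.5 in knockout and 116 and 1056 in wild-type shoots. In the wound-responsive family 1 of 6 was tested, AT4G05070, at 0.97 ± 0.33 in the knockout (adjusted p = 0.12) and 0.79 ± 0.33 in wild type (adjusted p = 0.28), each with an unadjusted p under 0.05. It read 10897 and 7804 in heated and 5668 and 3877 in control knockout shoots, and 8293 and 10882 in heated and 5659 and 5310 in control wild-type shoots, so its heated arrays lay above its controls. That is the opposite side from AT4G28240, though the test was not passed. How many of all probe sets had heated arrays above their controls was not counted.

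Of 7 genes listed with a class I glutamine amidotransferase domain 2 were tested and 0 passed in limma. AT1G66860 had 0.90 ± 0.40 in the knockout and 0.24 ± 0.40 in wild type, and AT2G23960 had -0.18 and -0.19. None of the 24 genes of glutamine and nitrogen metabolism, and none of the 21 genes of sugar starvation and darkness, had a probe set paired with 1 gene here, so these lists gave no value for the surroundings of GAT1_2.1.

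The genes beside the 5 on the chromosomes were read last, by their order in RefSeq (assembly TAIR10.1). Of 50 protein-coding genes within 5 places of a member, 17 had a tested probe set of their own. Only P1R1 (AT5G57780), 2 places from AT5G57760, passed in limma, and it fell in the knockout at -2.10 ± 0.39 (adjusted p = 0.017). It read 197 and 167 in heated and 1030.5 and 739 in control knockout shoots, and 366 and 179 in heated and 850.2 and 698 in control wild-type shoots, where its -1.48 did not pass (adjusted p = 0.099). One call lower among 17 is 5.88%, beside 3.66% of all tested probe sets in the knockout. In wild type 0 of 17 passed in limma, beside 0.71% of all tested probe sets called lower there. An unadjusted limma p under 0.05 was held by 3 of the 17 in wild type and 5 in the knockout. Such a p was common, with 2694 of all 15919 tested probe sets in wild type and 3726 in the knockout. Heat differences of the 17 ran from -2.10 to 0.96 in the knockout (median -0.53) and from -1.48 to 0.71 in wild type (median -0.49).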

How the data were processed

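What the authors deposited is a table of linear, never negative intensity values, with 22810 probe sets in rows and the 8 arrays in columns. No label names the software that made them. Each array has a trimmed mean near 500 (2% cut at each end), which shows that the deposited values had been scaled, and this was kept. Controls (64) were removed, as were the 30% of the other probe sets with the lowest mean (up to 61.7), so that 15919 were tested. Before the log2 step 29.1 was added to each signal, the 20th percentile of the whole table, and this understates changes of dim transcripts. The 4 group means were fitted together (limma 3.58.1, R 4.3.3, variance trend, 4 residual degrees of freedom). Tests were two-sided, and p-values were adjusted over all tested probe sets by Benjamini-Hochberg at 0.05. The 95% intervals are not adjusted. The fit was also run on simulated data with independent noise on each array and changes in the heated knockout alone. That setting lacks the shared deviations of same-numbered arrays, so it is no check of the calls under them. The number of arrays limits the precision.

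Probe sets were named through the platform annotation, with symbols updated from RefSeq by gene number. No genome build of the files is given, so no coordinates are printed. Members and lists were chosen with earlier results of these data known. Beside the members, the text names HSA32, the 3 nearest profiles of each member, up to 4 called genes a list, and markers. Uncalled list genes, the ranked neighbours ATL8, AT1G25400 and AT2G19660 and flanking genes were named after their values were seen. The alternatives covered offset, filter, normalization, variance model, blocks and left-out arrays.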

Additional observations from a re-analysis of the deposited data

Results flagged for a closer look

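HSA32 was marked because its arrays moved opposite ways after heat in the 2 genotypes. Both heated arrays lay below both controls in the knockout and above both controls in wild type. The difference between the heat responses, knockout minus wild type, was -6.39 on the log2 scale and did not pass over all probe sets in limma (adjusted p = 0.42). That call depended on the setting, since it passed in limma with replicate 1 of wild type left out at both temperatures (adjusted p = 0.021) and with a crossed replicate block that was chosen after seeing the data (adjusted p = 0.0094). Over all alternatives the adjusted p ran from 0.0094 to 1. None of the 5 heat-repressed genes showed such opposite movement, but they were chosen for falling after heat, so that is no separate result. With 2 arrays a group no test for a stray array was possible.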

How the results depend on the processing

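Over 19 alternatives all 190 heat values of the 5 genes stayed below zero, from -5.02 to -1.07. Since the genes were chosen for large falls, that sign was largely given by the choice and is no separate support. With 0.25 times the offset the value was -5.02 for GAT1_2.1 and -3.18 for AT2G28200 in the knockout, and -3.44 for AT1G13000 and -2.69 for AT2G28200 in wild type. With 4 times the offset it was -2.82 (GAT1_2.1), -1.07 (AT1G13000), -2.41 (AT2G28200) and -2.88 (AT5G57760) in the knockout, and -2.67 (GAT1_2.1), -1.62 (AT1G13000) and -2.06 (AT2G28200) in wild type. AT2G28200 had -2.81 in the knockout and -2.29 in wild type under quantile normalization, and -2.67 and -2.27 under median centring. With replicate 1 of wild type left out at both temperatures the wild-type values were -2.83 (GAT1_2.1), -4.75 (AT4G28240), -2.67 (AT2G28200) and -3.76 (AT5G57760). Leaving out 1 array gave -1.96 to -1.21 for AT1G13000 in the knockout, and in wild type -4.73 to -2.60 for GAT1_2.1, -4.40 to -2.18 for AT4G28240 and -3.49 to -1.69 for AT5G57760. The shifts with the offset follow from adding another number to dim signals, and the cause of the others was not tested.

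Of 285 values between the genotypes 0 passed (smallest adjusted p = 0.40) and 18 changed sign, most of them near zero. With 1 array left out, AT4G28240 ran from -1.11 to 1.12 after heat, -0.32 to 0.68 at 22 °C and -1.29 to 0.94 in the interaction. GAT1_2.1 ran from -1.90 to 0.23 after heat and from -1.58 to 0.55 in the interaction, AT5G57760 from -0.28 to 0.26 after heat, and AT1G13000 from -0.23 to 0.16 at 22 °C. AT4G28240 after heat was -0.039 with 4 times the offset. With both of those arrays left out, AT4G28240 was -0.17 at 22 °C and 1.29 in the interaction, and AT5G57760 was 0.26 after heat and 0.18 in the interaction.

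The probe sets called for heat numbered 1080 in the knockout and 406 in wild type as fitted, 230 to 2000 and 160 to 1314 with 1 array left out, and 2424 and 878 with replicate 1 of wild type left out at both temperatures. Of these calls 53.9% in the knockout and 27.8% in wild type were lower after heat, beside 38.0% and 23.9% under quantile normalization and 26.8% and 12.8% under median centring. The median over all tested probe sets was -0.26 and -0.22 as fitted, -0.08 and -0.08 under quantile normalization and 0.05 and 0.03 under median centring. Between the genotypes after heat the count was 0 to 4 with 1 array left out, and 1 with both of those arrays left out, as in the interaction. Replicate numbers were shared by the groups, and same-numbered arrays deviated together within a genotype (r = 0.52 in the knockout and 0.54 in wild type) but opposite across genotypes (r from -0.39 to -0.24), so the numbers do not pair all groups. With the replicate number as a block 675 probe sets were called for heat in the knockout and 290 in wild type. A crossed block, chosen after seeing the data, gave 2860 and 1406, with 1 call between the genotypes after heat and 1 in the interaction, HSA32 in both.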
